A study of Homo sapiens with 12 samples.

Results

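The 3 fibrinogen chain genes FGA, FGB and FGG and 7 further genes of secreted acute-phase proteins (LRG1, C3, SERPINA1, SERPINA3, HP, ITIH2 and ITIH3) were followed by RNA sequencing in human cells labelled as hepatoma lines after an siRNA against ARD1. The 10 genes were chosen by name, with earlier results of these data known. They were found by Ensembl ID among the 22730 genes that both count tables list. There were 12 libraries in 4 groups of 3. The first group came from cells labelled Hep-3B given siRNA against ARD1 (siARD1), and its counterpart from the same line given a negative-control siRNA (control). The other two groups were Huh-7 cells given siARD1 and Huh-7 cells given the control siRNA. Every library is labelled as coming from transfected hepatoma cells, and ARD1 is now called NAA10, which encodes the active subunit of NatA, the complex that acetylates the N termini of many proteins. Nothing in the labels tells whether the replicates came from separate cultures, so p-values measure only the spread between these libraries, which may be technical.

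Acute-phase proteins are plasma proteins that the liver releases in altered amounts during inflammation. Interleukin 6 acts through its receptor and the signal transducer gp130 on STAT3, and interleukin 1 acts on NF-kB and C/EBP factors, which bind the promoters of these genes. Fibrinogen is assembled from 3 kinds of chain, encoded side by side in 1 gene cluster, and is the precursor of the fibrin clot. The other genes encode a complement component, protease inhibitors, a haemoglobin carrier, a leucine-rich glycoprotein and heavy chains that become bound to hyaluronan.

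The target of the siRNA was low in every siARD1 library. In the libraries labelled Hep-3B, NAA10 stood at 10.9, 15.6 and 14.4 CPM (counts scaled to an equal library size) after siARD1 and at 48.4, 58.7 and 58.7 CPM in the controls (log2 fold change -2.01, SE 0.12, edgeR adjusted p = 1.36e-07). In Huh-7 it stood at 13.2, 9.86 and 9.99 CPM after siARD1 and at 165, 156 and 200 CPM in the controls (-3.98, SE 0.13, adjusted p = 1.66e-08). Total counts per library ran from 17327615 to 25960237.

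The liver identity of the libraries labelled Hep-3B is in doubt. Of 15 hepatocyte markers, 7 were under 1 CPM there, and the markers together summed to 94.8 to 114 CPM after siARD1 and 132 to 145 CPM in the controls, against 27031 to 31112 CPM after siARD1 and 34041 to 35561 CPM in the controls of Huh-7. Albumin and alpha-fetoprotein, which define hepatoma lines of this kind, were at 0.564 to 1.09 and 0.260 to 0.345 CPM after siARD1 and at 3.998 to 6.20 and 1.02 to 1.97 CPM in the controls. A trace of liver RNA also differed between the groups. Over 27 genes with at least 100 CPM in Huh-7 and at least 1000-fold less here, the libraries labelled Hep-3B held 0.00575 to 0.00720% of the Huh-7 level after siARD1 and 0.0319 to 0.0522% in the controls. Where the trace came from was not tested. Its size is given below beside the fibrinogen genes, C3, SERPINA1 and HP. For LRG1 the trace would account for 0.129% of the level after siARD1 and 0.407% in the controls. For ITIH2 it would account for 0.199% after siARD1 and 0.463% in the controls.

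Stretches of DNA before the start sites are shown for the fibrinogen chains and for LRG1, chosen because they hold letters that acute-phase factors are known to bind. They come from RefSeq on GRCh38.p14, where 7 of the 10 members matched 9 start sites. No entry was matched for C3, HP or ITIH2. Each is written 5′ to 3′ on the gene's own strand, and FGB and FGA are shown up to the first exon that GENCODE release 29 annotates. For FGG and LRG1 an annotated exon lies inside the window, and 30 bases around the match are shown. Capitals mark matches on either strand to 3 patterns, none overlapping another: TTCNNNGAA (a STAT site), CTGGGAA (an interleukin 6 response element) and TTNNGNAA (a C/EBP site).
FGB, chr4:154562761-154562955, plus strand: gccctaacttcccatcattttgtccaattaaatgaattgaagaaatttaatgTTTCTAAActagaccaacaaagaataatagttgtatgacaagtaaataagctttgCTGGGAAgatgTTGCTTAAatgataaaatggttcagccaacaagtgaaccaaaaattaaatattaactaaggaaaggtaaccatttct
FGA, chr4:154590767-154590992, minus strand: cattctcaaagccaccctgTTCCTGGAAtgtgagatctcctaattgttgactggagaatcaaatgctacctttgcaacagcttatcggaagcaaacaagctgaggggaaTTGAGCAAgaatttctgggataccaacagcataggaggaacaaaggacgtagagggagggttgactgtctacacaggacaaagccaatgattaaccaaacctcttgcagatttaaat
FGG, chr4:154612799-154612828, minus strand: gtgtgcaaaatCTGGGAAcctgacagtata
LRG1, chr19:4540173-4540202, minus strand: caatTTCCAGGAAgcaaTTTTGTAAtcctg

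FGB and FGG both hold CTGGGAA, and FGA and LRG1 both hold the STAT pattern. Among 35116 RefSeq promoters searched over the 250 bases before the start, 6.567% held TTCNNNGAA, 9.153% CTGGGAA and 33.201% TTNNGNAA on either strand. These matches describe letters only, and their part in the changes was not tested. ITIH3 held none of the 3 patterns in its 250 bases, and SERPINA3 held 1, a TTNNGNAA match. SERPINA1 has 2 start sites in the table, of which one held no match and the other 1, also to TTNNGNAA.

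The fibrinogen genes were clearly lower after siARD1 in the libraries labelled Hep-3B. FGA (GRCh38 chromosome 4, 154583126 to 154590766, minus strand), which encodes the alpha chain from which fibrinopeptide A is cut, had 81.3, 101 and 70.8 CPM after siARD1 and 226, 251 and 211 CPM in the controls. FGB (154562956 to 154571086, plus strand), the gene of the beta chain, had 135, 136 and 141 CPM after siARD1 and 309, 368 and 297 CPM in the controls. FGG (154604134 to 154612967, minus strand), the gene of the gamma chain through which fibrinogen binds platelets, had 142, 187 and 154 CPM after siARD1 and 324, 359 and 285 CPM in the controls. In all 3 genes every siARD1 library lay below every control library. The log2 fold changes were -1.44 for FGA (SE 0.12, edgeR adjusted p = 2.67e-05), -1.24 for FGB (SE 0.07, adjusted p = 2.73e-08) and -1.0 for FGG (SE 0.11, adjusted p = 7.70e-05). That left 36.9, 42.3 and 49.99% of the control level. The trace of liver RNA would account for 0.0461 to 0.158% of the fibrinogen levels after siARD1 and 0.157 to 0.397% in the controls. In bulk samples, fewer cells making an mRNA and less of it per cell cannot be told apart.

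In Huh-7 the same genes were several-fold more abundant and changed little. FGA had 1841, 1754 and 2147 CPM after siARD1 and 2123, 2476 and 2279 CPM in the controls. FGG had 1056, 998 and 1141 CPM after siARD1 and 1191, 1377 and 1275 CPM in the controls. FGB had 1634, 1668 and 2115 CPM after siARD1 and 1672, 2018 and 1851 CPM in the controls. Replicate 3 of siARD1 was the highest of its group in all 3 genes, and only in FGG did the groups not overlap. FGA fell by 0.26 on the log2 scale (SE 0.07, edgeR adjusted p = 0.00769) and FGG by 0.27 (SE 0.06, adjusted p = 0.00164). The call of FGA was lost without control replicate 2 (adjusted p = 0.0506) and when both lines shared one fit (adjusted p = 0.0934). FGB had a log2 fold change of -0.03 (95% interval -0.26 to 0.20, adjusted p = 0.824). Without siARD1 replicate 3 its value was -0.16 with adjusted p = 0.0461, and without any one of 3 other libraries its sign was positive, up to 0.04.

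**Figure D1:**
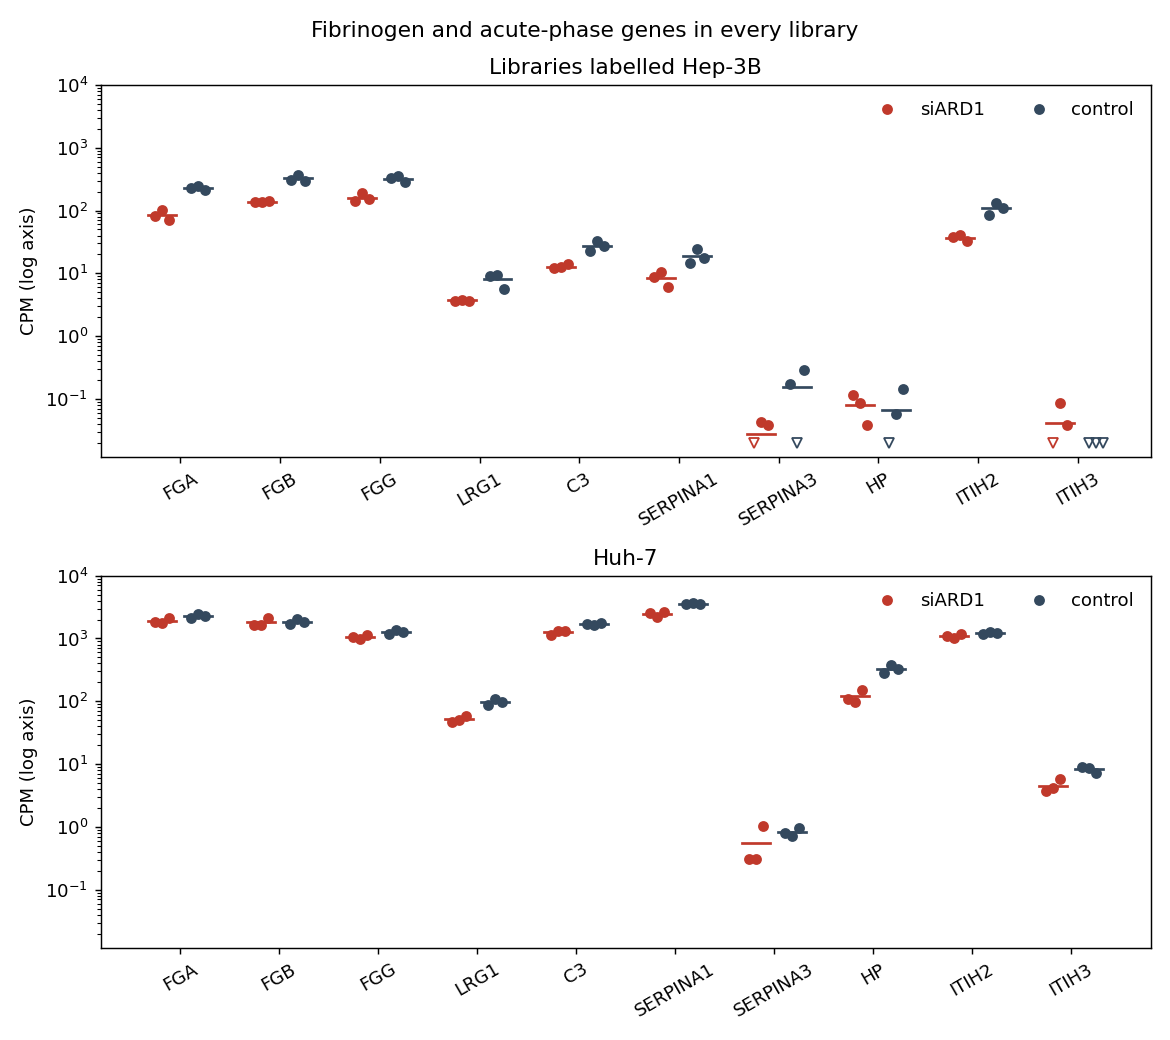
CPM of the 10 genes in each library (log axis), with siARD1 in red left of control in dark blue, points for libraries and lines for group means. Open triangles stand for libraries with a count of 0. In the libraries labelled Hep-3B the siARD1 points lie below the control points for the 7 genes above 1 CPM, and in Huh-7 the clearest gaps are in LRG1 and HP.

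Because the 3 chains are needed together, their mRNA ratios were compared within libraries, as CPM per kb of annotated exon. In the libraries labelled Hep-3B, FGA over FGB was 0.411, 0.510 and 0.345 after siARD1 and 0.499, 0.466 and 0.487 in the controls, so the groups overlapped (exact two-sided permutation p = 0.4). FGG over FGB was 0.792, 1.04 and 0.824 after siARD1 and 0.788, 0.734 and 0.723 in the controls, without overlap (exact p = 0.1, a difference of 0.23 on the log2 scale). Single libraries moved both values: without siARD1 replicate 2 the log2 difference of FGG over FGB was 0.11, and that of FGA over FGB was -0.22 with all libraries, -0.36 without siARD1 replicate 2 and -0.08 without siARD1 replicate 3. In Huh-7, FGA over FGB was 0.771, 0.720 and 0.695 after siARD1 and 0.869, 0.840 and 0.843 in the controls (exact p = 0.1, log2 difference -0.22). FGG over FGB was 0.486, 0.450 and 0.406 after siARD1 and 0.536, 0.513 and 0.518 in the controls (exact p = 0.1, log2 difference -0.23). With 3 libraries a group the exact test cannot go below 0.1, so none of the 4 ratio differences could pass a threshold of 0.05. The contrast between the lines in the FGG ratio was not itself tested.

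**Figure D2:**
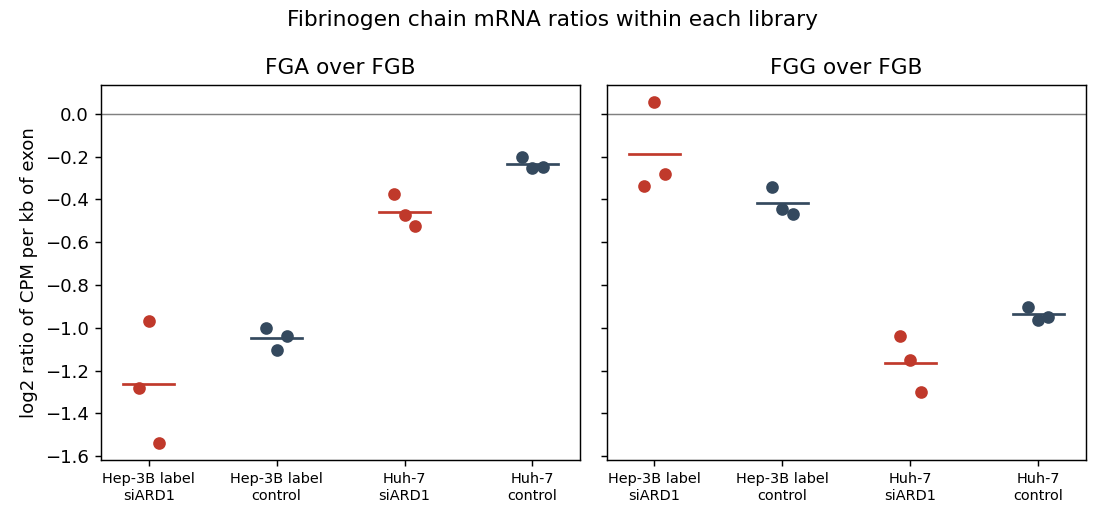
Log2 ratio of FGA to FGB (left) and of FGG to FGB (right), each from CPM per kb of exon, in every library. Points are libraries, lines are group means, and siARD1 (red) stands left of control (dark blue) within each line. In Huh-7 both ratios are lower in all 3 siARD1 libraries. In the libraries labelled Hep-3B the FGG ratio is higher, but only narrowly in siARD1 replicate 1 (-0.337 against -0.344 in control replicate 1).

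LRG1 (chromosome 19, 4536409 to 4540474, minus strand) encodes leucine-rich alpha-2-glycoprotein, an acute-phase protein that modulates TGF-beta signalling in endothelium. It had 3.62, 3.82 and 3.66 CPM (63, 88 and 95 counts) after siARD1 and 9.04, 9.34 and 5.63 CPM (208, 161 and 116 counts) in the controls labelled Hep-3B. In Huh-7 it had 46.6, 51.2 and 59.3 CPM after siARD1 and 87.1, 109 and 99.3 CPM in the controls. No siARD1 library reached the lowest control library in either line. The fall was -1.11 in the libraries labelled Hep-3B (SE 0.19, edgeR adjusted p = 3.40e-04) and -0.91 in Huh-7 (SE 0.09, adjusted p = 5.02e-06).

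C3 (chromosome 19, 6677704 to 6730562, minus strand), the central component on which the complement pathways converge, had 11.96, 12.6 and 13.9 CPM after siARD1 and 22.6, 32.2 and 27.2 CPM in the controls labelled Hep-3B. Huh-7 held far more, with 1148, 1329 and 1311 CPM after siARD1 and 1676, 1664 and 1739 CPM in the controls. The groups were apart in both lines, with log2 fold changes of -1.08 (SE 0.12, edgeR adjusted p = 1.02e-05) and -0.42 (SE 0.06, adjusted p = 7.44e-06). The trace of liver RNA would account for 0.731% of the C3 level after siARD1 and 2.34% in the controls labelled Hep-3B. The gene overlaps GPR108 on the same strand, whose reads may be shared with it.

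SERPINA1 and SERPINA3 encode alpha-1-antitrypsin and alpha-1-antichymotrypsin, inhibitors of neutrophil elastase and of cathepsin G, and lie in one serpin cluster on chromosome 14. SERPINA1 (94376747 to 94390693, minus strand) had 8.74, 10.6 and 6.05 CPM after siARD1 and 14.8, 24.4 and 17.9 CPM in the controls labelled Hep-3B. In Huh-7, where it was among the most abundant members, it had 2530, 2224 and 2676 CPM after siARD1 and 3483, 3675 and 3545 CPM in the controls. Neither line showed an overlap, and the falls were -1.17 (SE 0.23, edgeR adjusted p = 0.00425) and -0.53 (SE 0.06, adjusted p = 9.93e-07). The trace of liver RNA corresponded to 2.27% of its level after siARD1 and 6.88% in the controls labelled Hep-3B, and with the trace subtracted the fall was -1.10 (adjusted p = 0.00833). SERPINA3 (94612377 to 94624055, plus strand) was nearly silent. Its raw counts in the libraries labelled Hep-3B were 0, 1 and 1 after siARD1 and 4, 0 and 6 in the controls, too few to be tested. The Huh-7 libraries gave 6, 6 and 20 counts after siARD1 and 14, 16 and 22 in the controls (-0.58, 95% interval -1.50 to 0.35, adjusted p = 0.320). Scaled to library size, siARD1 replicate 3 (1.05 CPM) lay above all 3 controls (0.728 to 0.964 CPM) and the other siARD1 libraries below them, and without it the value was -1.40 with adjusted p = 0.0327.

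HP (chromosome 16, 72054592 to 72061055, plus strand), the gene of haptoglobin, which binds free haemoglobin, gave the largest fall of the members in Huh-7. It had 111, 96.4 and 153 CPM after siARD1 and 286, 376 and 327 CPM in the controls, so all siARD1 libraries were below all controls. On the log2 scale that was -1.46 (SE 0.22, edgeR adjusted p = 0.00737). Its raw counts in the libraries labelled Hep-3B were 2, 2 and 1 after siARD1 and 0, 1 and 3 in the controls, a mean of 0.0801 CPM after siARD1 and 0.0679 CPM in the controls. The trace alone would give 0.0142 CPM after siARD1 and 0.0971 CPM in the controls. Its near-identical neighbour HPR had 14.5, 16.7 and 24.5 CPM after siARD1 and 20.1, 29.1 and 25.7 CPM in the Huh-7 controls (-0.44, adjusted p = 0.182). How reads were divided between HP and HPR is uncertain. TXNL4B overlaps HP on the opposite strand and rose in Huh-7 (0.18, adjusted p = 0.0463), and the strand setting of the counting is not given in the sources used here.

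The inter-alpha-trypsin inhibitor heavy chains ITIH2 and ITIH3, which are transferred onto hyaluronan in the extracellular matrix, behaved differently in level. ITIH2 (chromosome 10, 7703269 to 7749520, plus strand) had 38.1, 40.6 and 32.3 CPM after siARD1 and 84.1, 130 and 111 CPM in the controls labelled Hep-3B. It fell to 34.2% of the control level (-1.55 on the log2 scale, SE 0.16, edgeR adjusted p = 3.23e-04), the largest fall of the members in this line. In Huh-7 it had 1113, 1009 and 1190 CPM after siARD1 and 1162, 1266 and 1215 CPM in the controls, and these overlapped (-0.14, 95% interval -0.26 to -0.01 before adjustment, adjusted p = 0.0781). ITIH2 passed in Huh-7 under upper-quartile scaling (-0.20, adjusted p = 0.00889), under limma-voom (adjusted p = 0.0491), and without control replicate 1 (adjusted p = 0.0382) or siARD1 replicate 3 (adjusted p = 0.00833). ITIH3 (chromosome 3, 52794768 to 52809009, plus strand) gave 0, 2 and 1 counts after siARD1 and 0, 0 and 0 in the controls labelled Hep-3B. It had 3.72, 4.10 and 5.81 CPM (72, 79 and 111 counts) after siARD1 and 9.08, 8.68 and 7.32 CPM (161, 191 and 167 counts) in the Huh-7 controls. These did not overlap (-0.88, SE 0.17, adjusted p = 2.14e-04).

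Counted over the members, 7 of the 10 passed the filter on low counts in the libraries labelled Hep-3B, and of these 7 were lower and 0 higher after siARD1 at an edgeR adjusted p under 0.05. Over all 15762 genes tested there, 15.3% were lower and 16.8% higher. The median log2 fold change was -1.17 over the tested members and -0.01 over all tested genes. SERPINA3, HP and ITIH3 stayed under the filter in both groups. In Huh-7 all 10 were tested, 7 were lower and 0 higher, where 18.9% of 15919 genes were lower and 21.2% higher. The median there was -0.47 over the members and -0.01 over all tested genes. Because the members were chosen with earlier results of these data known, the counts and medians of both lines are no independent test. Upper-quartile scaling moved the Huh-7 split of all genes to 3887 lower and 2557 higher, against 3009 lower and 3379 higher with TMM factors, and under it 8 members were lower. The member count in the libraries labelled Hep-3B was 7 lower under each alternative tried, with the trace of liver RNA subtracted and with any one library left out.

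**Figure D3:**
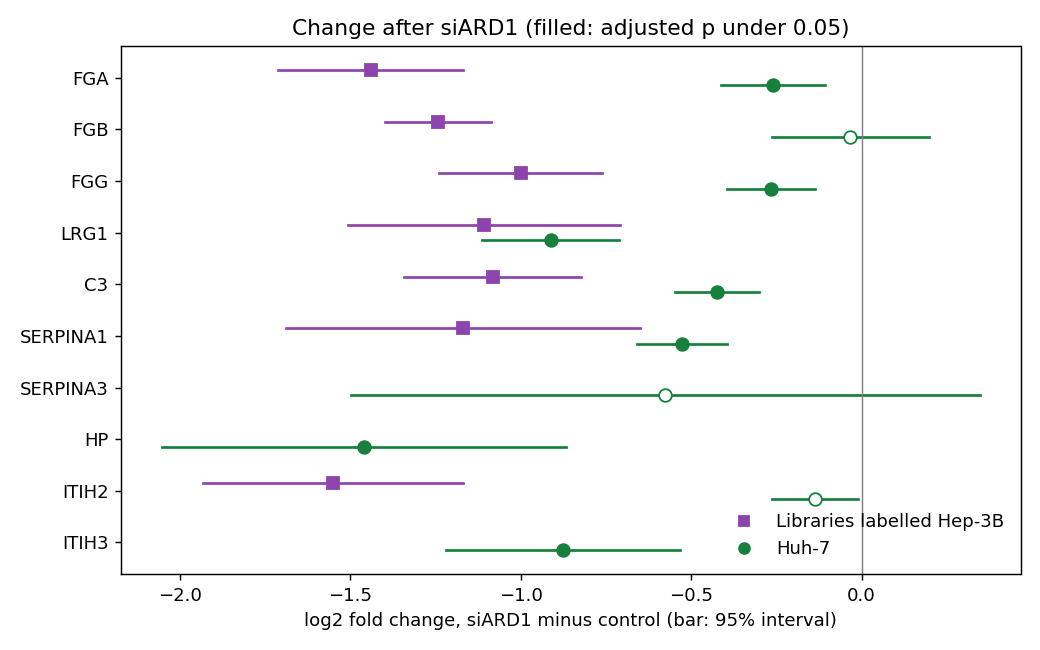
Log2 fold change (siARD1 minus control) of each gene in the libraries labelled Hep-3B (squares) and in Huh-7 (circles), with 95% intervals before adjustment. Filled symbols have an adjusted p under 0.05, and a gene without a square was too low to test. The squares lie between -1.55 and -1.0, while the circles spread from -1.46 for HP to -0.03 for FGB.

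The effect of siARD1 differed between the lines for 5 of the 10 members in a fit of all 12 libraries. The difference, Huh-7 minus the line labelled Hep-3B, was 1.16 for FGA (SE 0.17, edgeR adjusted p = 2.57e-04), 1.19 for FGB (SE 0.14, adjusted p = 1.60e-05) and 0.72 for FGG (SE 0.14, adjusted p = 9.26e-04). It was 0.64 for C3 (SE 0.13, adjusted p = 5.74e-04) and 1.39 for ITIH2 (SE 0.20, adjusted p = 2.97e-04). A positive difference means a smaller fall in Huh-7, and over the 17122 genes of this test 15.2% had a higher and 16.2% a lower effect in Huh-7. For LRG1 the difference was 0.18 (95% interval -0.29 to 0.64, adjusted p = 0.593). SERPINA1 had a difference of 0.62 (95% interval -0.00148 to 1.25, adjusted p = 0.123). For SERPINA3, HP and ITIH3 (adjusted p = 0.325, 0.626 and 0.0796) one side of the difference rested on 0 to 6 counts a library. NAA10 itself was lowered further in Huh-7, with a difference of -1.995 (adjusted p = 1.56e-05). The lines also differ in starting level and, per the marker check, in identity, so line and level cannot be told apart here.

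Set against Huh-7, the members kept different shares of their level in the libraries labelled Hep-3B. FGG stood at 12.1 to 16.0% of its mean Huh-7 CPM after siARD1 and at 24.3 to 30.6% in the controls, and FGB at 7.41 to 7.70% after siARD1 and 16.2 to 20.2% in the controls. C3 was at 0.810 to 0.941% after siARD1 and 1.53 to 2.18% in the controls, and SERPINA1 at 0.200 to 0.349% after siARD1 and 0.489 to 0.806% in the controls. These 4 genes all lay above the trace of liver RNA, whereas HP lay closest to it, at 0.0172 to 0.0512% after siARD1 and at 0 to 0.0648% in the controls.

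**Figure D4:**
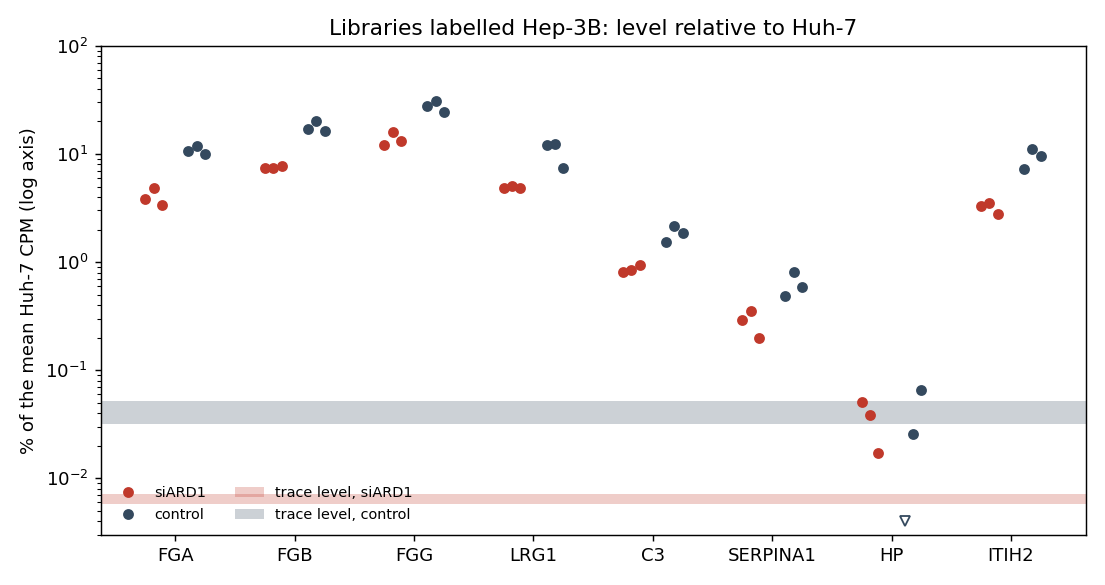
Level of each gene in the 6 libraries labelled Hep-3B as a percentage of its mean CPM over the 6 Huh-7 libraries (log axis), siARD1 in red left of control in dark blue. The red and grey bands span the trace levels over 27 other genes, and an open triangle is a count of 0. HP alone of the genes drawn lies near the bands. SERPINA3 and ITIH3 are left out because their counts were at most 6.

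Per kb of annotated exon, FGB led the order of levels after siARD1 in both lines and in the controls labelled Hep-3B. It had 50.7 CPM per kb after siARD1, where its range overlapped that of FGG (44.8), and 120 in the controls labelled Hep-3B, and 667 after siARD1 and 682 in the Huh-7 controls. SERPINA1 led in the Huh-7 controls (728 CPM per kb) but its range overlapped that of FGB. The order in both groups labelled Hep-3B was FGB, FGG, FGA, ITIH2, SERPINA1, C3 and LRG1, with HP, SERPINA3 and ITIH3 near 0. Among the 7 tested members, the neighbours whose ranges overlapped in both groups were SERPINA1 and C3. After SERPINA1 and FGB, the Huh-7 order in both groups was FGA, ITIH2, FGG, C3, HP, LRG1, ITIH3 and SERPINA3, and ITIH2 and FGG overlapped in both groups. With the length of the longest coding transcript in place of all exons, FGG came before FGB in the libraries labelled Hep-3B, at 91.6 and 69.5 CPM per kb after siARD1 and 183 and 164 in the controls. In Huh-7 that length put FGG ahead of FGA and ITIH2, at 605, 520 and 346 CPM per kb after siARD1 and 728, 623 and 380 in the controls. The place of FGG in both lines thus depended on which exons were counted.

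The genes beside the members moved in both directions. PLRG1, a splicing factor gene beside FGB, rose after siARD1, by 0.32 in the libraries labelled Hep-3B (SE 0.07, edgeR adjusted p = 0.00318) and by 0.39 in Huh-7 (SE 0.05, adjusted p = 4.74e-06). LRAT, the retinol esterifying enzyme gene on the far side of FGG, had 0.15 (adjusted p = 0.499) in the libraries labelled Hep-3B. Beside LRG1 both neighbours fell in both lines. PLIN5, a lipid droplet protein gene 1.2 kb away, had -0.62 in the libraries labelled Hep-3B (adjusted p = 0.00498) and -1.66 in Huh-7 (adjusted p = 1.70e-09). The semaphorin gene SEMA6B, 2.1 kb away, had -0.38 in the libraries labelled Hep-3B (adjusted p = 0.0136) and -0.47 in Huh-7 (adjusted p = 1.35e-06). In the serpin cluster, SERPINA6, the gene of the cortisol carrier, fell by 1.02 in the libraries labelled Hep-3B (adjusted p = 0.0140) and by 0.54 in Huh-7 (adjusted p = 1.63e-06). Over the distinct tested neighbours, 8 of 15 were lower and 3 higher in the libraries labelled Hep-3B, and 8 of 16 lower and 3 higher in Huh-7, against 15.3% and 18.9% lower over all genes tested in those lines.

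The genes whose log2 CPM followed FGB most closely over the 6 libraries of a line were not other members. Those in the libraries labelled Hep-3B were RERE, CTTN, MAD2L1BP, ACADVL and ZHX3, with Pearson r of 0.997 to 0.999, among 10950 genes at 5 CPM or more. FGA and FGG had r of 0.973 and 0.970 and ranks 242 and 273. These 6 libraries fall into 2 treatment groups, so r is high for any gene that is lower in the same group, and it is given as a description only. In Huh-7, where FGB was not called, the closest were RPL8, RASL11A, CBX5, CDC45 and KRR1 (r of 0.985 to 0.992, 11155 genes), and FGA and FGG had r of 0.715 and 0.583.

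More of the other acute-phase genes were called lower than higher. Like the members, these genes and the lists below were chosen with earlier results of these data known. Of 30 genes outside the members that are known to rise in the acute phase, 19 were tested in the libraries labelled Hep-3B. There 10 were lower and 2 higher (median -0.54), against 15.3% lower and 16.8% higher over all genes. A2M, ORM1, SERPING1 and VTN of this list are among the 27 genes from which the trace was computed. A change of theirs there cannot be told apart from the trace. Ceruloplasmin, CP, a copper-carrying ferroxidase, fell to 533 CPM after siARD1 against 994 CPM in the controls (-0.90, SE 0.08, edgeR adjusted p = 4.57e-06). The complement proteases C1R (-0.54) and C1S (-0.57) fell too, while the complement component C5 (0.88) and the siderophore binder LCN2 (0.73) rose. In Huh-7, 26 were tested, of which 11 were lower and 3 higher (median -0.26), against 18.9% lower and 21.2% higher over all genes. The angiotensin precursor AGT (-0.56), the lipopolysaccharide-binding protein LBP (-1.52) and C4BPA, a complement inhibitor chain (-0.70), fell there, and C1S (0.56), IL1RN (0.68) and ORM2 (0.35) rose. CRP gave 2, 4 and 6 counts after siARD1 and 0, 4 and 0 in the Huh-7 controls and could not be tested.

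Of the genes known to fall in the acute phase, 7 of 12 tested in Huh-7 were lower, 0 higher and 5 not called (median -0.53, against 18.9% lower over all genes), with fetuin AHSG (-0.60), the vitamin D carrier GC (-0.59) and the coagulation factor F12 (-0.52) the clearest. Only 3 of 13 could be tested in the libraries labelled Hep-3B, and all 3 were lower. ALB (-2.69) is one of the 27 genes from which the trace was computed, so its value cannot be told apart from the trace. Transferrin, TF (-0.65, adjusted p = 1.33e-04), and SERPINA6 had under 5% of their levels accounted for by it.

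Relatives of the members were lower wherever they were called. Among other inter-alpha-trypsin inhibitor genes, ITIH1 fell in Huh-7 (-0.81, SE 0.14, edgeR adjusted p = 8.12e-05), which was 1 of 3 tested. Both relatives tested in the libraries labelled Hep-3B were lower, but the light chain precursor AMBP (-1.32) is a trace gene and ITIH4 was under 1 CPM. Of the other clade A serpins, 4 of 6 were lower in Huh-7, among them SERPINA4 (-0.90) and SERPINA11 (-1.08). In the libraries labelled Hep-3B 2 of 2 were lower, both weakly expressed. SERPINA6 had 1.02 CPM after siARD1 and 2.06 CPM in the controls there, and SERPINA5 0.882 and 1.58 CPM (edgeR adjusted p = 0.0444). Over all genes tested, 18.9% were lower in Huh-7 and 15.3% in the libraries labelled Hep-3B.

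Genes of the cytokine pathway that drives these genes were called in both directions. In the line labelled Hep-3B, 10 of 23 tested genes were lower and 6 higher (median -0.07), against 15.3% lower and 16.8% higher over all genes. CEBPD, a C/EBP factor induced in the acute phase, had 73.3, 87.4 and 69.5 CPM after siARD1 and 146, 149 and 137 CPM in the controls (-0.91, SE 0.08, edgeR adjusted p = 1.25e-06). The NF-kB inhibitor gene NFKBIA (-0.72) and the interleukin 1 receptor gene IL1R1 (-0.42) were lower there. JAK1 (0.34), LIFR (0.29) and IL6ST (0.26), which encodes gp130, were higher. STAT3 had -0.22 (adjusted p = 0.00648), SOCS3, the feedback inhibitor that STAT3 induces, -0.29 (adjusted p = 0.0198), IL6R 0.01 (adjusted p = 0.960) and CEBPB -0.07 (adjusted p = 0.420).

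In Huh-7, 6 of 21 tested genes of this pathway were lower and 6 higher (median -0.08), against 18.9% lower and 21.2% higher over all genes. SOCS3 had 3.82, 4.98 and 6.12 CPM after siARD1 and 7.27, 9.46 and 6.62 CPM in the controls (-0.65, SE 0.17, edgeR adjusted p = 0.00534). LIF (-2.04), PIAS3 (-0.60) and IL6R (-0.34) were lower, and NFKB1 (0.60), NFKBIA (0.52), JAK1 (0.48) and CEBPB (0.21, adjusted p = 0.00407) were higher. STAT3 (-0.12, adjusted p = 0.0601), IL6ST (0.06, adjusted p = 0.422) and CEBPD (-0.30, adjusted p = 0.173) did not pass. The effect on CEBPD differed between the lines (Huh-7 minus the line labelled Hep-3B 0.59, SE 0.18, adjusted p = 0.0286).

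Of 16 liver transcription factor genes tested in Huh-7, 4 were lower and 1 higher (median -0.10), against 18.9% lower over all genes. HNF4A had 0.04 in the libraries labelled Hep-3B (adjusted p = 0.751) and 0.03 in Huh-7 (adjusted p = 0.677). PROX1 (0.77) and ONECUT2 (0.37) were higher and RXRA (-0.18) lower in the libraries labelled Hep-3B. In Huh-7, PPARA (-0.68), NR5A2 (-0.30) and FOXA2 (-0.24) were lower and NR1H4, the bile acid receptor gene, higher (0.47).

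Of 16 genes that handle these proteins in the secretory pathway, 9 were higher, 1 lower and 6 not called in the libraries labelled Hep-3B (median 0.28), where 16.8% of all tested genes were higher. SEL1L, part of the machinery that returns misfolded proteins to the cytosol, had 325 CPM after siARD1 and 144 CPM in the controls (1.18, SE 0.06, edgeR adjusted p = 1.05e-08). The lectin chaperones CANX (0.41) and CALR (0.36) were higher as well. In Huh-7, 5 of 16 were higher and 3 lower (median 0.00), against 21.2% higher and 18.9% lower over all genes. The protease gene FURIN (0.42), CANX (0.28) and UGGT1 (0.17) were higher there and C1RL (-0.53), LMAN1 (-0.35) and PDIA3 (-0.15) lower.

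Receptors and enzymes that act on the member proteins were mostly lower where called. In Huh-7, 6 of 12 tested were lower and 2 higher (median -0.24), against 18.9% lower and 21.2% higher over all genes. PLG, the gene of plasminogen, whose active form dissolves fibrin, had 61.0 CPM after siARD1 and 152 CPM in the controls (-1.32, SE 0.07, edgeR adjusted p = 8.90e-12). The receptor gene ASGR1 (-0.53) and the complement regulator CD46 (-0.35) were lower, and TGFB1 (0.21) and CD55 (0.35) higher. Of 10 tested in the libraries labelled Hep-3B, 3 were lower and 1 higher, against 15.3% lower and 16.8% higher over all genes. The lower ones were LRP1 (-0.44), the C3b-cleaving protease gene CFI (-0.90) and prothrombin, F2 (-1.08), and CD55 was higher (0.53).

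**Figure D5:**
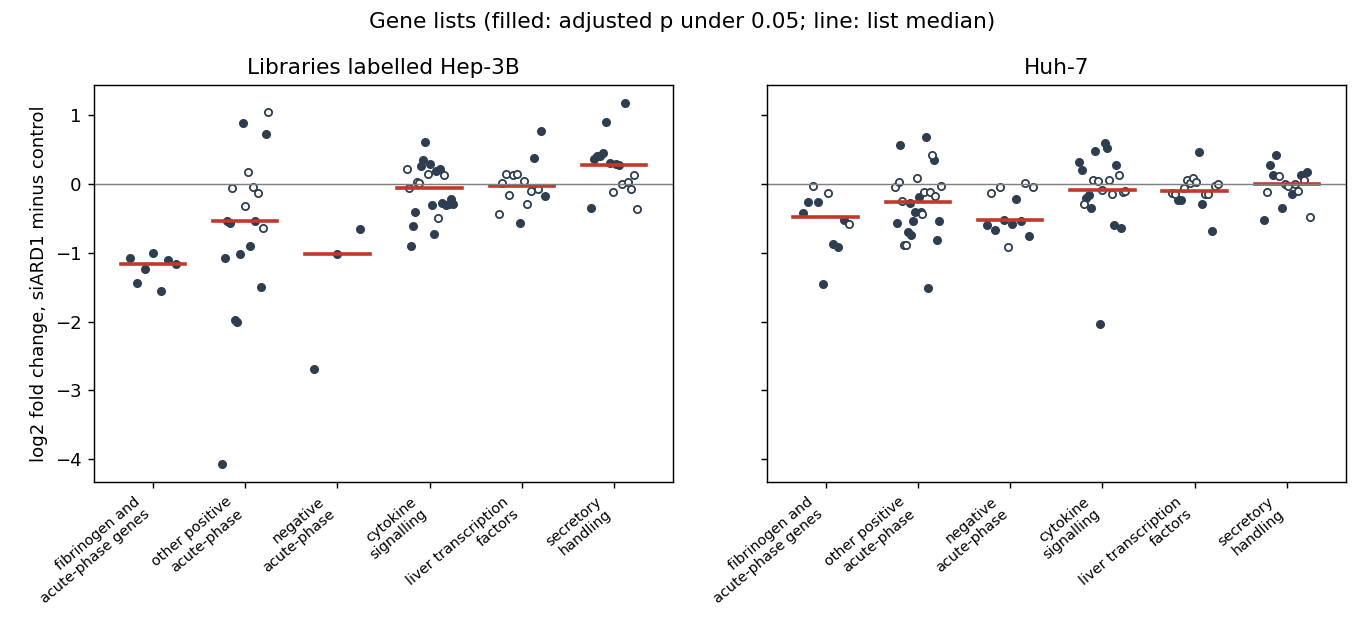
Log2 fold change (siARD1 minus control) of the tested genes of 6 lists in the libraries labelled Hep-3B (left) and in Huh-7 (right), with filled points for an adjusted p under 0.05 and a red line at each list's median. The median of the fibrinogen and acute-phase genes is -1.17 on the left and -0.47 on the right, while the medians of cytokine signalling (-0.07 and -0.08) lie near 0.

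Some markers of other cell types were well expressed. In the libraries labelled Hep-3B, the matrix proteoglycan gene LUM averaged 120 CPM after siARD1 and 141 CPM in the controls, the endothelial receptor gene KDR 53.7 CPM after siARD1 and 38.2 CPM in the controls, and DCN 24.2 CPM after siARD1 and 23.1 CPM in the controls. LYZ, a leukocyte marker, averaged 92.5 CPM after siARD1 and 84.4 CPM in the controls of Huh-7. Of 8 fibroblast markers 5 were under 1 CPM in the libraries labelled Hep-3B and 3 in Huh-7, and of 6 leukocyte markers 4 in each line. Of 5 endothelial markers 3 were under 1 CPM in the libraries labelled Hep-3B and 4 in Huh-7. Of 5 keratinocyte markers 4 were under 1 CPM in the libraries labelled Hep-3B and 3 in Huh-7. Summed fibroblast markers were at 137 to 173 CPM after siARD1 and 163 to 174 CPM in the controls labelled Hep-3B, and at 34.96 to 37.95 CPM after siARD1 and 47.8 to 54.6 CPM in the controls of Huh-7. Leukocyte markers summed to 4.47 to 4.95 CPM after siARD1 and 4.90 to 6.55 CPM in the controls labelled Hep-3B, and to 97.0 to 116 CPM after siARD1 and 94.9 to 99.6 CPM in the controls of Huh-7. Endothelial markers summed to 63.4 to 76.2 CPM after siARD1 and 53.3 to 65.9 CPM in the controls labelled Hep-3B, and to 10.8 to 13.2 CPM after siARD1 and 13.1 to 14.4 CPM in the controls of Huh-7. Keratinocyte markers summed to 9.12 to 9.72 CPM after siARD1 and 13.6 to 16.2 CPM in the controls labelled Hep-3B, and to 7.16 to 8.37 CPM after siARD1 and 7.67 to 8.28 CPM in the controls of Huh-7. Their part in the changes above was not tested.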

How the data were processed

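Total RNA was extracted, ribosomal RNA was removed and directional libraries were built, per the labels' protocols. Reads were trimmed with cutadapt 4.6 and aligned with STAR 2.7.11b to GRCh38, per the submitters' processing notes. For each line the authors deposited a table of raw counts by gene. The sources used here do not name the counting tool, annotation or strand setting. Tables listed 25720 and 25714 genes, and 0 columns of values were left unmapped. From these counts, edgeR 4.0.16 in R 4.3.3 fitted each line alone (filterByExpr with a minimum count of 10 and total of 15, TMM factors, robust quasi-likelihood F-test, Benjamini-Hochberg adjustment over all tested genes, threshold 0.05), and all 12 libraries for the difference between lines. SE was taken as the size of the log2 fold change divided by the root of F. Fibrinogen chain ratios were tested by exact permutation. Positions, exons and lengths came from GENCODE release 29.

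The members, gene lists and tests were chosen with earlier results of these data known. The text gives all 10 members, NAA10, regulators (IL6R, IL6ST, STAT3, SOCS3, CEBPB, CEBPD, HNF4A), nearest tested neighbours, the 5 genes most like FGB, and per list and line up to 3 called genes each way with the lowest p and a mean of at least 1 CPM. Some results that this rule names are not reported here. HPR, TXNL4B, CRP, ITIH4, LUM, KDR, DCN and LYZ, named outside that rule, were chosen after their values were seen. Alternatives were DESeq2 1.42.0, limma-voom (limma 3.58.1), upper-quartile or RLE factors, no filter, 1 CPM in 3 libraries, 0.01 as the false discovery rate, one fit of both lines, the trace subtracted, a replicate block, another or no length scaling, and each library left out. The main edgeR fits of each line and of the difference between lines were run on simulated counts, with outcomes not reported here. The other steps were not simulated. Figures used matplotlib 3.10.9 in Python 3.11.15. Intervals cover the spread between libraries only.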

Additional observations from a re-analysis of the deposited data

Results flagged for a closer look

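For 5 members the effect of siARD1 differed between the lines by the test of the difference itself, Huh-7 minus the line labelled Hep-3B, in edgeR over 12 libraries. The differences were 1.16 for FGA, 1.19 for FGB, 0.72 for FGG, 0.64 for C3 and 1.39 for ITIH2 on the log2 scale, each toward a smaller fall in Huh-7. In the libraries labelled Hep-3B every siARD1 library was below every control for all 5. In Huh-7 that held for FGG and C3, and FGA, FGB and ITIH2 overlapped.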

How the results depend on the processing

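In the libraries labelled Hep-3B the 7 member calls and their direction held under all alternatives run, and the single values ranged from -1.70 to -0.92 with one library left out. In Huh-7 the count of lower members was 6 with both lines in one fit, 8 under upper-quartile factors and limma-voom, and 6 to 10 with one library left out, the highest without siARD1 replicate 3. FGB in Huh-7 ranged from -0.160393 to 0.0367764 with one library left out, positive without control replicate 2, siARD1 replicate 1 or siARD1 replicate 2 (lowest adjusted p of the 3 0.813), and the cause was not tested. At a false discovery rate of 0.01, fewer genes passed by construction, 1384 lower and 1689 higher in the libraries labelled Hep-3B, and 1824 with a lower effect in Huh-7. Deviations from the group mean were correlated between libraries of the 2 groups. In the line labelled Hep-3B, same-numbered libraries gave 0.02, 0.18 and 0.18, and differently numbered ones -0.19 to 0.002. In Huh-7, same-numbered libraries gave 0.20, -0.19 and 0.00, within the -0.29 to 0.35 of differently numbered ones. The numbers thus showed no pairing in Huh-7, while a weak pairing in the line labelled Hep-3B remains possible. With a replicate block, 2676 genes were lower and 2921 higher in the libraries labelled Hep-3B and 2975 and 3353 in Huh-7, the members gave 7 lower in each line, and the difference between lines passed for 6 members, SERPINA1 added (0.64, adjusted p = 0.00434). SERPINA1 also passed that test without control replicate 1 of the line labelled Hep-3B (0.80, adjusted p = 0.0420). Depth limits SERPINA3, HP and ITIH3 in the libraries labelled Hep-3B, where counts were 0 to 6 a library.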
